A study of Mus musculus with 4 samples.

Results

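The NFAT and calcineurin genes were compared between NFATc1-deficient and wild-type mouse osteoclast cultures. The 9 genes were Nfatc1, Nfatc2, Nfatc3, Nfat5, Rcan1, Ppp3ca, Ppp3cb, Ppp3r1 and Fkbp1a. Their members were all probe sets that the platform annotation assigns to 1 gene symbol and whose symbol is one of these, which gave 26 of the 22690 probe sets measured. A probe set is the group of short oligonucleotides on an Affymetrix array that together report 1 transcript. A further probe set, shared between Ppp3r1 and another gene, was left out.

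The cultures were on 4 arrays, 2 of NFATc1-deficient cells (genotype NFATc1 fl/fl MxCre+) and 2 of wild-type cells (NFATc1 fl/fl MxCre-). All mice were C57BL/6, and both genotypes carried the floxed Nfatc1 alleles. MxCre is a recombinase driven by the interferon-inducible Mx1 promoter, and in the deficient mice it was switched on with polyIC, so cells in which the gene was not cut may remain. Whether the wild-type mice also received polyIC, and the ages of the mice, are not given in the sources used here. Osteoclast precursors sorted from bone marrow as CD11b-, CD3e-, B220-, ckit+ and cfms+ cells were grown for 3 days with MCSF and RANKL, which the labels describe as giving early osteoclasts. Marrow of several mice was combined for each array, 3 in replicate 1 and 4 in replicate 2.

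NFAT proteins are transcription factors held in the cytoplasm by phosphorylation. A rise in calcium activates the phosphatase calcineurin, which strips these phosphates and lets NFAT enter the nucleus. Calcineurin consists of a catalytic A subunit, encoded by Ppp3ca or Ppp3cb in most cells, and a calcium-binding B subunit encoded by Ppp3r1. RCAN1 binds and restrains calcineurin, and its gene is itself a known NFAT target. FKBP12, the product of Fkbp1a, inhibits calcineurin only when it carries the drug FK506. In osteoclast precursors RANKL and calcium signals raise NFATc1, which also acts on its own gene.

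RefSeq lists 2 transcript starts for Rcan1, on the minus strand of chromosome 16 and 66091 bases apart. The shorter RCAN1 isoform starts at the internal one, which is known for its NFAT sites. Because Rcan1 showed the largest change among the 9 genes, the 250 bases before each start (build GRCm38.p6) are shown beside those of Ppp3cb, a gene with no called change. Capitals mark GGAAA, the core that NFAT proteins bind, and TGANTCA, the AP-1 motif, on either strand.
Rcan1 internal start, chr16:92400079-92400328, minus strand: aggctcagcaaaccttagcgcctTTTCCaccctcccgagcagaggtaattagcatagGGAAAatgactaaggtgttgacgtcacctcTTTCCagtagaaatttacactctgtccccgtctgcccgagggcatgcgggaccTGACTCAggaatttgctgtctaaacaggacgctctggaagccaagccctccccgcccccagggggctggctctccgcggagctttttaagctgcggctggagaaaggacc
Rcan1 upstream start, chr16:92466170-92466419, minus strand: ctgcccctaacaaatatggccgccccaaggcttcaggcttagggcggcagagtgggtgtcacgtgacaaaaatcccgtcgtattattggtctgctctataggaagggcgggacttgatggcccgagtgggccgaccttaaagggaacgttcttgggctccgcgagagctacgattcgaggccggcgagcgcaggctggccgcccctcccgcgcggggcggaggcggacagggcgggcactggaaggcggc
Ppp3cb start, chr14:20546574-20546823, minus strand: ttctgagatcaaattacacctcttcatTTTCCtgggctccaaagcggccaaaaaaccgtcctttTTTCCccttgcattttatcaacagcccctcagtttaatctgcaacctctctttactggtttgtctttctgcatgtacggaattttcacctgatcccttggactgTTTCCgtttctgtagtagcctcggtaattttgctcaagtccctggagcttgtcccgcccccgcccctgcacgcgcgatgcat
The internal Rcan1 window held 3 copies of GGAAA and 1 TGANTCA, the AP-1 motif lying 110 to 104 bases before the start, and no 2 of these matches overlapped. The upstream Rcan1 window held neither motif. The Ppp3cb window also held 3 copies of GGAAA and had no TGANTCA. RefSeq windows were read for 7 of the 9 genes, with Nfatc1 and Ppp3ca left out. These were 10 windows in all, of which 7 held GGAAA and 1 held TGANTCA. Among all 32817 such windows of mouse genes, 55.6% held GGAAA and 6.75% held TGANTCA. These matches are letters in a window and were not tested as binding sites.

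The deposited signals were linear MAS5 values scaled by the authors to a common trimmed mean. They were analysed as log2(signal + 23.3), where the pseudocount of 23.3 equals the 25th percentile over the whole table. Changes are NFATc1-deficient minus wild-type on this scale unless a percentage of mean signal is named, and they understate the change of dim probe sets. Signals of different probe sets cannot be set against each other, since each has its own brightness. Probe sets with a mean log2 value above the 40th percentile were tested with limma, which left 13575. Of these, 11.4% were lower and 12.8% higher in the deficient cultures at an adjusted p under 0.05. With RNA from whole cultures, fewer cells of a type and less RNA per cell cannot be told apart.

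Array medians lay between 112 and 130 signal units. Of 9 measured osteoclast markers, 8 fell, where 11.9% of all tested genes did, and 7 of the 9 are also reported NFATc1 targets. The summed signal of the 9 was 28994 and 35831 on the deficient arrays and 55066 and 63225 on the wild-type arrays. Tnfrsf11a did not fall, with 768.2 and 818.2 in the deficient cultures, against 675.5 and 636.4 in the wild-type cultures. Granulocyte markers summed to 14611 on the deficient replicate 1 array and 7093 on the deficient replicate 2 array, against 4829 and 5720 on the wild-type arrays. Of the 7 granulocyte markers 3 rose, where 12.8% of all tested genes did, and none was below the pseudocount on all arrays. Xist was 2690 on the deficient and 3595 on the wild-type replicate 1 array, and between 106 and 111 on the replicate 2 arrays, so replicate number goes with the sex of the pool as well as its size. The 8 T and NK cell markers on the array summed to 187 and 192 on the deficient arrays and to 473 and 159 on the wild-type arrays. Cd3d, Cd4 and Ncr1 were below the pseudocount on all arrays, while Zap70 had 285 on the wild-type replicate 1 array and 40.2 to 85.2 on the others.

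Of the 26 probe sets, 19 passed the filter, at least 1 for each gene. Of these, 5 were lower (2 of Nfatc1, 2 of Rcan1 and 1 of Ppp3ca) and 0 were higher by limma's adjusted p, against the 11.4% and 12.8% among all probe sets tested. At an unadjusted p under 0.05 the counts were 6 lower and 1 higher. The median change of the 19 was 0.05, and that of all tested probe sets was 0.04. The signals of the 2 genotypes did not overlap for 7 probe sets that were lower and 7 that were higher in the deficient cultures, where 28.7% and 34.4% of all tested probe sets did so. The remaining 7 probe sets, 3 of Nfatc2, 3 of Nfat5 and 1 of Fkbp1a, had signals from 1.0 to 39.3 and were not tested.

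**Figure D1:**
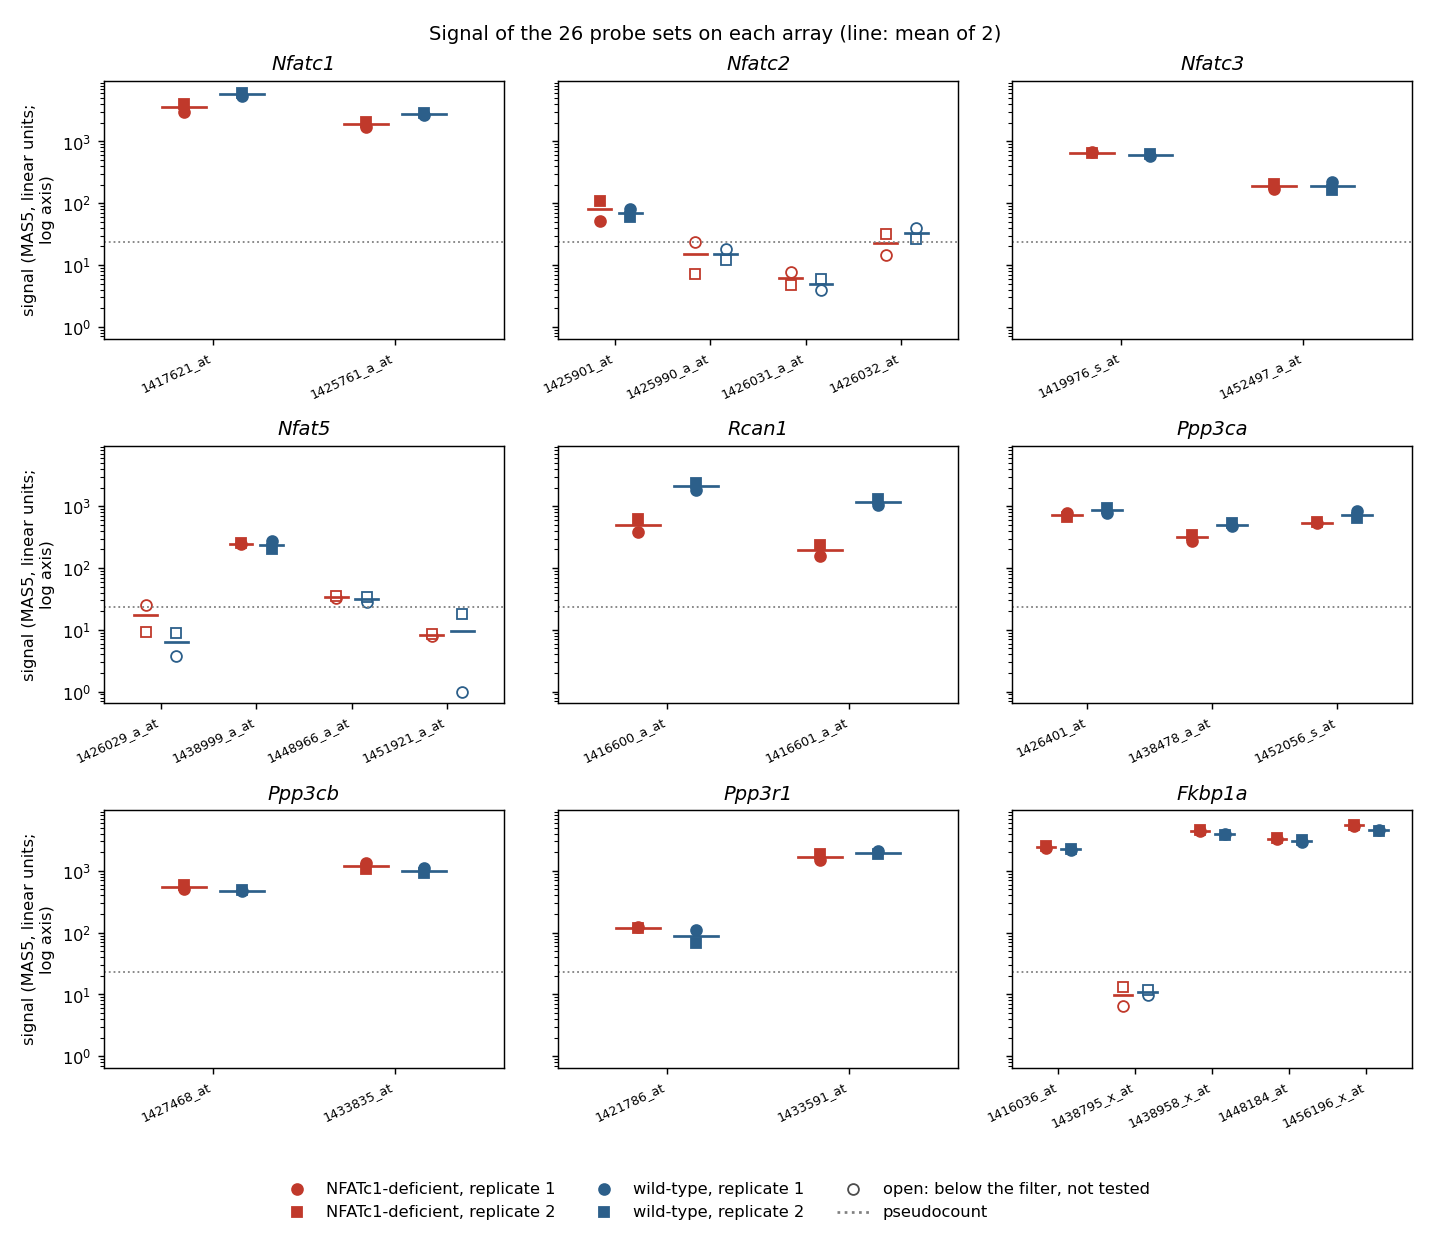
Signal of every probe set on each array (vertical log axis, MAS5 signal in linear units), with NFATc1-deficient arrays in red to the left of wild-type arrays in blue. Circles are replicate 1, squares replicate 2, short lines the mean of 2 arrays, open symbols the 7 probe sets that were not tested, and the dotted line the pseudocount of 23.3. The groups stand apart most clearly for Rcan1.

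Nfatc1, the targeted gene, was lower in the deficient cultures at both probe sets, and no deficient array had less than 52.1% of the wild-type mean signal. The brighter probe set (1417621_at) had signals of 3018 and 4098 in the deficient cultures, against 5434 and 6147 in the wild-type cultures. Both deficient values lay below both wild-type values, and the deficient replicate 1 array was the lowest. The mean was 3558 ± 763 in deficient and 5790.2 ± 504 in wild-type cultures (SD, n = 2 each), which is 61.4% of wild-type, and the change was -0.71 (SE 0.15, limma adjusted p = 0.0102). The dimmer probe set (1425761_a_at) had 1718 and 2079 in the deficient cultures, against 2681 and 2860 in the wild-type cultures, again without overlap. It changed by -0.55 (SE 0.12, adjusted p = 0.0126). Between arrays of the same replicate number the change of the brighter probe set was -0.84 for replicate 1 and -0.58 for replicate 2. Without the deficient replicate 1 array, which had the highest granulocyte sum, the changes were -0.49 (adjusted p = 0.0882) and -0.41 (adjusted p = 0.0944). The part of the granulocyte signal in this was not tested. Where the probe sets lie relative to the removed part of the gene was not analysed here, so they measure Nfatc1 transcripts and not the deletion.

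Among the other NFAT transcription factors no tested probe set passed. Nfatc3, a family member present in most tissues, had 666 and 653 in the deficient cultures, against 573 and 624 in the wild-type cultures, at its brighter probe set (1419976_s_at). Its change was 0.14 (95% interval -0.15 to 0.43, adjusted p = 0.482), although the signals did not overlap. Its other probe set (1452497_a_at) had 168 and 208 in the deficient cultures, against 220 and 166 in the wild-type cultures, with a change of -0.03 (-0.52 to 0.46). These signals overlapped, and the sign of the change turned when the wild-type replicate 1 or the deficient replicate 1 array was left out.

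Nfatc2, the NFAT best known from T cells, was dim at all 4 of its probe sets. Its 1 tested probe set (1425901_at) had 50.9 and 108.6 in the deficient cultures, against 79.6 and 61.0 in the wild-type cultures. The signals overlapped, and the change of 0.09 had an interval from -0.67 to 0.84 (adjusted p = 0.883). Its sign turned without the wild-type replicate 2 or the deficient replicate 2 array. The other 3 Nfatc2 probe sets lay between 3.9 and 39.3.

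Nfat5, the tonicity-responsive member that lacks the calcineurin docking region, had 240.5 and 249.1 in the deficient cultures, against 275.2 and 201.4 in the wild-type cultures (1438999_a_at). The deficient values lay between the wild-type values. The change was 0.05 (-0.40 to 0.50, adjusted p = 0.889), and it turned to -0.16 without the wild-type replicate 2 array. Nfatc4, the remaining calcineurin-dependent family gene, is not among the 9, and none of its 4 probe sets passed the filter, with signals up to 90.8. MAS5 detection calls were not used here, so whether Nfatc2 and Nfatc4 stood above background is unknown.

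Rcan1 had the largest change among the 9 genes. Its brighter probe set (1416600_a_at) had 386.0 and 618.9 in the deficient cultures, against 1861 and 2397 in the wild-type cultures. The higher deficient value was below the lower wild-type value by a wide margin. The mean was 502 ± 165 in deficient and 2129 ± 379 in wild-type cultures (SD, n = 2 each), or 23.6% of wild-type. The change was -2.06 (SE 0.21, 95% interval -2.54 to -1.58, limma adjusted p = 0.000451). The dimmer probe set (1416601_a_at) had 155.1 and 233.4 in the deficient cultures, against 1040 and 1328 in the wild-type cultures. That is 16.4% of wild-type, with a change of -2.49 (SE 0.20, adjusted p = 0.000194). Both probe sets passed under all 12 alternative settings, with changes from -2.38 to -1.73 for the brighter and from -2.75 to -2.06 for the dimmer. Which of the 2 Rcan1 starts each probe set reports was not analysed here.

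The change of Rcan1 was larger than that of Nfatc1 on the log2 scale. The log2 value of the brighter Rcan1 probe set minus that of the brighter Nfatc1 probe set was -2.89 and -2.68 on the deficient arrays, against -1.53 and -1.35 on the wild-type arrays. The difference of -1.35 between genotypes kept its sign with all 4 pairings of their probe sets, reaching -1.94 for the dimmer of each. An exact two-sided permutation test over the arrays gave p = 0.333, the smallest that 2 arrays against 2 can give. In both genotypes the array with the lower Nfatc1 signal, that of replicate 1, also had the lower Rcan1 signal, at both probe sets of each gene. This is an order of 2 arrays a genotype, and replicate number also goes with sex and pool size. How many of all probe sets show the same order was not computed, and a link between the 2 genes within a genotype was not tested.

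**Figure D2:**
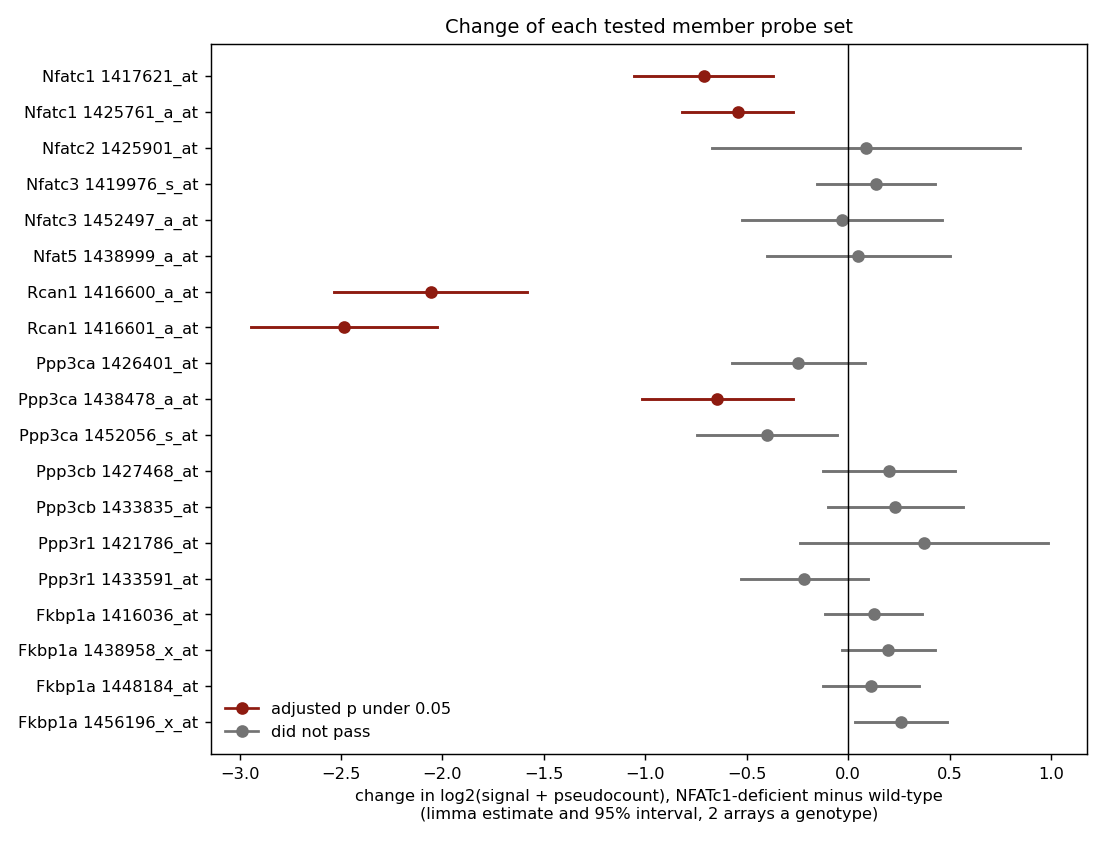
Change of each of the 19 tested probe sets in log2(signal + 23.3), NFATc1-deficient minus wild-type, on the horizontal axis, as the limma estimate (point) with its 95% interval (line). Dark red marks the 5 probe sets with an adjusted p under 0.05. The 2 Rcan1 intervals lie wholly below those of Nfatc1 and of the calcineurin subunits.

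Of the calcineurin subunits, Ppp3ca was lower at 1 of its 3 probe sets. That probe set (1438478_a_at) had 278 and 348 in the deficient cultures, against 475 and 526 in the wild-type cultures. The groups did not overlap, and the change was -0.64 (SE 0.16, adjusted p = 0.0221), with a deficient mean at 62.6% of wild-type. A second (1452056_s_at) had 531 and 556 in the deficient cultures, against 824 and 638 in the wild-type cultures, with a change of -0.40 (-0.75 to -0.06, adjusted p = 0.0888). The brightest (1426401_at) had 769.6 and 661.0 in the deficient cultures, against 770.2 and 938.6 in the wild-type cultures. Its groups were separated only by the small gap between the replicate 1 arrays, and its change was -0.25 (-0.57 to 0.08, adjusted p = 0.259). All 3 estimates were below 0, and their intervals overlapped. The first probe set did not pass without the deficient replicate 1 array (-0.49, adjusted p = 0.124) or the wild-type replicate 2 array (-0.58, adjusted p = 0.0609). With all 4 arrays it did not pass without the filter (adjusted p = 0.0506) or without the variance trend (0.0519). Without the wild-type replicate 2 array the second probe set passed (-0.58, adjusted p = 0.0256).

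The other catalytic subunit, Ppp3cb, did not pass at either probe set. The brighter (1433835_at) had 1328 and 1066 in the deficient cultures, against 1107 and 921 in the wild-type cultures. These signals overlapped, and the change was 0.23 (-0.10 to 0.56, adjusted p = 0.294). The dimmer (1427468_at) had 510.1 and 597.0 in the deficient cultures, against 464.5 and 490.2 in the wild-type cultures, without overlap and with a change of 0.20 (-0.12 to 0.53, adjusted p = 0.354). The third catalytic gene, Ppp3cc, known mainly from testis, is not among the 9. At its tested probe set it had 69.8 and 75.3 in the deficient cultures, against 55.3 and 48.2 in the wild-type cultures (change 0.35, adjusted p = 0.395).

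Ppp3r1, the regulatory B subunit, had probe sets with estimates of opposite sign, and neither passed. The brighter (1433591_at) had 1481 and 1899 in the deficient cultures, against 2062 and 1850 in the wild-type cultures, with overlap and a change of -0.22 (-0.53 to 0.10, adjusted p = 0.297). The dimmer (1421786_at) had 123.5 and 117.2 in the deficient cultures, against 111.6 and 67.9 in the wild-type cultures, with a change of 0.37 (-0.24 to 0.98, adjusted p = 0.360). The probe sets of this gene therefore give no common direction.

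Fkbp1a estimates were above 0 at all 4 tested probe sets, and none passed. The brightest (1456196_x_at) had 5346 and 5512 in the deficient cultures, against 4626 and 4432 in the wild-type cultures. The deficient signals lay above the wild-type signals, at 120% of the wild-type mean, and the change was 0.26 (0.03 to 0.49, adjusted p = 0.0951). It passed only with quantile scaling among the 12 alternatives (0.31, adjusted p = 0.0260). The other 3 had changes of 0.20 (1438958_x_at), 0.13 (1416036_at) and 0.11 (1448184_at), with adjusted p from 0.193 to 0.475, and their signals did not overlap either. In the array maker's naming, probe sets ending in x_at hold probes that can also match other sequences.

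By the smallest root mean square difference between array profiles, each centred on its own mean over the 4 arrays, the genes most like Nfatc1 among 7790 were Camk1 (0.03), Gnb5 (0.03), Mmp9 (0.04), Tmem268 (0.04) and Rab31 (0.04). Camk1, a calcium and calmodulin-dependent kinase, had 185 and 249 in the deficient cultures, against 354 and 406 in the wild-type cultures (change -0.76). Gnb5 was not called (-0.67, limma adjusted p = 0.0957). Without the variance trend Rab31 (adjusted p = 0.0542) and Tmem268 (0.0582) did not pass. Camk1 and Tmem268 lost the call when the wild-type replicate 2 array, the deficient replicate 1 array or the filter was left out (adjusted p up to 0.125 for Camk1 and 0.273 for Tmem268). Those most like Rcan1 were Hsd3b7 (0.09), Rusc2 (0.09), Amacr (0.10), Snx10 (0.10) and Smpd1 (0.11). Hsd3b7, an enzyme of bile acid synthesis, had 552.0 and 900.3 in the deficient cultures, against 3060 and 3401 in the wild-type cultures (change -2.16). These profiles rest on 4 arrays, 2 of each genotype.

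Other genes that act on calcineurin and NFAT were read through 6 lists, with the brightest tested probe set for each gene, beside 11.9% of 7799 genes that were lower and 12.8% that were higher. Of 13 tested calcineurin regulators and immunophilins outside the 9 genes, 3 fell and 1 rose (4 and 4 at an unadjusted p under 0.05), with a median change of -0.05 against 0.03 for all genes. Both relatives of Rcan1 were among those that fell. Rcan2 had 93.2 and 154.8 in the deficient cultures, against 1066 and 1038 in the wild-type cultures, which is 11.8% of the wild-type mean (change -2.90, SE 0.21, adjusted p = 0.000122). Its other probe set, below the filter, had 3.5 and 7.0 in the deficient cultures, against 76.1 and 110.0 in the wild-type cultures. Rcan3 had 194.8 and 253.6 in the deficient cultures, against 433.2 and 398.2 in the wild-type cultures (change -0.84, adjusted p = 0.0111). Rcan3 no longer passed without the deficient replicate 1 array (adjusted p = 0.0621). All 3 genes of the RCAN family were thus lower in the deficient cultures, Rcan1 by 4.24-fold and Rcan2 by 8.48-fold in mean signal at their brightest probe sets. The mitochondrial cyclophilin gene Ppif fell by 0.75 at its brightest probe set (-0.09 at another). It did not pass without the deficient replicate 1 array (adjusted p = 0.125), the filter (0.0678) or the variance trend (0.0714). The FK506-binding co-chaperone gene Fkbp5 rose by 0.82, with 0.84 at another probe set.

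**Figure D3:**
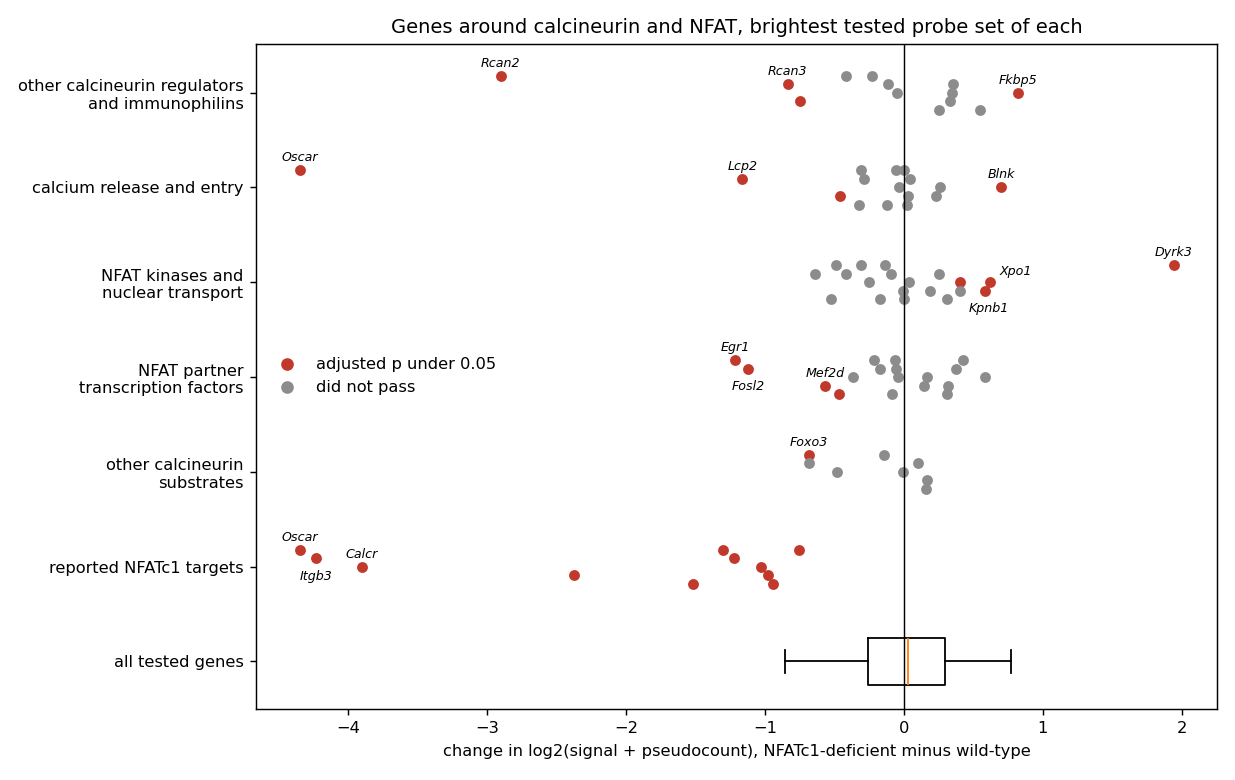
Change in log2(signal + 23.3), NFATc1-deficient minus wild-type (horizontal axis), of each tested gene in 6 lists around calcineurin and NFAT. Red points passed at an adjusted p under 0.05, grey points did not, and the box gives the interquartile range of all 7799 tested genes with whiskers at the 5th and 95th percentiles. Rcan2 lies far to the left of the other calcineurin regulators, while all 11 reported NFATc1 targets lie below 0.

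Of 16 genes of calcium release and entry upstream of calcineurin, 3 fell and 1 rose (5 and 1 at an unadjusted p under 0.05, median -0.05). The immune receptor Oscar (-4.35), the adaptor Lcp2 (-1.16) and the kinase Syk (-0.46, with -0.17 and -0.25 at other probe sets, which did not pass) fell, and the adaptor Blnk rose by 0.70. The store-operated channel gene Orai1 (0.00), the calcium sensor Stim1 (0.23), the phospholipase Plcg2 (0.26) and the receptor channel genes Itpr2 (-0.06) and Itpr3 (-0.12) did not pass. Syk did not pass without the deficient replicate 1 array (adjusted p = 0.0979), with median scaling (0.0947) or without the variance trend (0.0725).

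Among 20 tested NFAT kinases and genes of nuclear transport, 4 rose and 0 fell by limma's adjusted p (5 and 2 at an unadjusted p under 0.05, median 0.00). Dyrk3, a kinase of the family that phosphorylates NFAT, had 229.0 and 208.4 in the deficient cultures, against 51.2 and 29.8 in the wild-type cultures (change 1.94, adjusted p = 0.00143). Dyrk3 passed the filter only through its deficient signal, since its mean log2 value in the wild-type cultures was 5.97. The change was 2.45 with a pseudocount of 1 and 1.08 with the 50th percentile as pseudocount, and it passed with both. The nuclear exporter gene Xpo1 rose by 0.62, the importin gene Kpnb1 by 0.59 and the nuclear transport gene Cse1l by 0.40. Cse1l did not pass without either deficient array, with median scaling or without the variance trend (adjusted p up to 0.158). Dyrk1b (-0.64), Homer3 (-0.52), Gsk3b (-0.49), Dyrk1a (-0.13), Gsk3a (-0.09) and Csnk1a1 (0.31, with -0.22 at another probe set) did not pass.

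Of 18 partner transcription factors, 4 fell and 0 rose (5 and 1 at an unadjusted p under 0.05, median -0.06). Those that fell were Egr1 (-1.22), the AP-1 genes Fosl2 (-1.12) and Jund (-0.47), and Mef2d (-0.56, with -0.06 at another probe set). Mef2d and Jund did not pass without the wild-type replicate 1 array, the deficient replicate 1 array, the filter or the variance trend, nor Jund with median scaling (adjusted p up to 0.245 for Mef2d and 0.190 for Jund). Egr1 had -1.47 with a pseudocount of 1 and -0.70 with the 50th percentile, and passed with both. Mitf had -0.37 at its brightest probe set (adjusted p = 0.0677) and fell at another (-1.15, adjusted p = 0.00304). Fosl1 (0.58, adjusted p = 0.200) did not pass. Of 8 other calcineurin substrates, 1 fell and 0 rose by limma's adjusted p (2 and 0 at an unadjusted p under 0.05). Foxo3 fell (-0.69, with -0.06 at another probe set), but did not pass without the deficient replicate 1 array (adjusted p = 0.0756). The cell death gene Bad had 0.10 at its brightest probe set and fell at another (-0.91, adjusted p = 0.0045). Ksr1 (-0.68), Tfeb (-0.48) and Dnm1l (0.17) did not pass.

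All 11 tested targets reported for NFATc1 in osteoclasts fell, where 11.9% of all tested genes did. Their median change was -1.30, and 7 of them are also among the osteoclast markers above. This list was chosen with earlier results of these data known, so the count is not an independent test. Without the deficient replicate 1 array Mmp9 (adjusted p = 0.137) and Ctsk (0.0750) did not pass, nor Mmp9 with median scaling (0.0503). The other probe set of Clcn7 had -0.66 and did not pass. Oscar, Itgb3 (-4.23), Calcr (-3.90) and the anion exchanger gene Slc4a2 (-2.38) had the largest changes. Itgb3 and Calcr passed the filter only through their wild-type signal. Itgb3 had 4.6 and 10.2 in the deficient cultures, below the pseudocount, against 610.6 and 495.1 in the wild-type cultures. The size of its change depended on the pseudocount, with -6.12 at a pseudocount of 1 and -2.40 at the 50th percentile, and that of Calcr likewise (-4.74 and -2.53). Rcan1 lay between Slc4a2 and Mmp14 (-1.52) at its brighter probe set (-2.06), and beyond Slc4a2 at its dimmer (-2.49).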

How the data were processed

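RNA of 4 cultures, 2 NFATc1-deficient and 2 wild-type, was measured on Affymetrix arrays. The deposited values are MAS5 intensity values, 1 linear signal per probe set and array, per the submitters' processing notes. Array means trimmed by 2% at each end ran from 500.186 to 500.211. The MAS5 version is not given in the sources used here. Gene names came from the platform annotation (20393 with 1 symbol, 691 with several, 1606 with none), and all 9 symbols matched RefSeq (GRCm38.p6).

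Signals were converted to log2(signal + 23.3). Leaving aside 64 controls, 13575 probe sets above the 40th percentile of mean log2 values were fitted with limma 3.58.1 (R 4.3.3, lmFit and eBayes with an intensity trend), two-sided, with Benjamini-Hochberg adjustment over all of them and a threshold of 0.05. The fit was tested on simulated data with independent normal noise, and its recovery and false calls are not reported here. The number of arrays limits the precision. The replicates are separate pools, which differ in size and sex within each genotype. The p-values rest on the spread between 2 pools a genotype, moderated across all tested probe sets. This spread includes the differences in sex and pool size. The 9 genes, the 6 lists and the settings were chosen with earlier results of these data known. Named were all 9 genes, the 4 most changed genes of each list, further list members chosen after their values were seen, and the 5 genes closest in profile to Nfatc1 and to Rcan1. Alternatives covered scaling, pseudocount, filter, variance trend, a replicate block and leaving out each array.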

Additional observations from a re-analysis of the deposited data

How the results depend on the processing

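The 12 alternatives kept the direction of both Nfatc1 and both Rcan1 probe sets and all Rcan1 calls. Without the variance trend the brighter Nfatc1 probe set (-0.71) had an adjusted p of 0.0599, 2 member probe sets were lower instead of 5, and the higher probe sets numbered 1015 instead of 1739, against 1157 without the filter. The dimmer Nfatc1 probe set did not pass without the trend (adjusted p = 0.0665) or with median scaling (0.0536), nor did the lower Ppp3ca probe set without the trend (0.0519) or the filter (0.0506). With median scaling the dimmer Nfatc1 probe set changed by -0.53 instead of -0.55, and its SE was 0.21 instead of 0.12. The SE of Mmp9 was 0.29 instead of 0.14, and that of Oscar 0.20 instead of 0.38. The fitted spread thus differed from that of the main fit too. With quantile scaling 1 member probe set was higher instead of 0. Leaving out 1 array gave changes from -0.93 to -0.49 for Nfatc1 and from -2.38 to -1.73 for Rcan1, 2 to 5 member probe sets lower, 932 to 1544 probe sets lower and 849 to 1948 higher, and 13 to 23 list genes lower and 5 to 10 higher. All the lowest of these counts were without the deficient replicate 1 array. Without 1 array the sign also turned, with none called, for Nfatc3 1452497_a_at (0.15 and 0.11, range -0.21 to 0.15), Nfatc2 1425901_at (-0.06 and -0.33, range -0.33 to 0.50) and Nfat5 1438999_a_at (-0.16, range -0.16 to 0.25). With replicate number as a block (replicate block), 5 member probe sets were lower and 0 higher, and 10 list genes were higher instead of 6. The adjusted p of Nfatc1 was then 0.000188. With the block, the arrays leave little information on the spread of a single probe set. This value therefore rests mostly on the spread moderated across all tested probe sets. The same holds for the fits that leave out 1 array. Deviations of same-numbered arrays correlated at 0.13 across probe sets. The medians of all changes stayed between 0.00 and 0.07.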
